A study of Mus musculus with 20 samples.

Results

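The genes described here encode the mouse Fc gamma receptors Fcgr1, Fcgr2b, Fcgr3 and Fcgr4 and their shared signalling chain, Fcer1g. They were taken by symbol from a table of 14456 listed genes, of which 14421 had an entry in GENCODE M21, and all 5 were listed and passed the filter on low values. The table holds 20 long RNA libraries of bone marrow-derived macrophages (BMDM), which the study differentiated with M-CSF for 6 days from the marrow of male C57BL/6J mice aged 8 to 12 weeks. In the glucose experiment, BMDM were cultured for 24 h in 25 mM glucose (high glucose, 4 libraries) or in 5.5 mM glucose with 19.5 mM mannitol as the osmotic control (normal glucose, 4 libraries). In the exosome experiment, naive BMDM were exposed for 24 h to PBS, to exosomes from BMDM kept in normal glucose (BMDM–NG-exo) or to exosomes from BMDM kept in high glucose (BMDM–HG-exo), with 4 libraries each. The labels give the same 4 dates to the 3 exosome groups. The study states that the samples of this experiment came from separate exosome preparations. The labels do not say which libraries came from separate animals. The p-values therefore measure the spread between libraries, which may in part be technical.

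Fc gamma receptors bind the constant part of IgG and let macrophages respond to antibody-coated particles and immune complexes. The activating receptors Fcgr1, Fcgr3 and Fcgr4 signal through Fcer1g, whose tail carries an immunoreceptor tyrosine-based activation motif (ITAM) that recruits the kinase Syk. Fcgr2b is the inhibitory receptor, and the inhibitory motif (ITIM) in its own tail recruits the phosphatase SHIP-1, encoded by Inpp5d. Fcgr1 binds IgG with high affinity and is a textbook target of interferon gamma.

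The bases that encode these opposing motifs are shown because they separate the inhibitory receptor from the activating chain. They were read from the GENCODE M21 transcripts (GRCm38), on the minus strand, with the tyrosine codons in capitals.
Fcgr2b ITIM, chr1:170961071-170961088, within 1 exon: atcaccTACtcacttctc
Fcer1g ITAM, chr1:171229889-171230072, 45 coding bases joined across an intron: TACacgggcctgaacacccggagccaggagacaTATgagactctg

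The genes other than Fcgr1 lie close together on chromosome 1, and Fcgr1 on chromosome 3. In GRCm38, Fcgr2b spans chr1:170958617-170976547 and Fcgr3 spans chr1:171051174-171064935, both on the minus strand. Fcgr4 lies between them at chr1:171018920-171029761 on the plus strand, and Fcer1g lies at chr1:171229572-171234365 on the minus strand. Fcgr1 spans chr3:96282909-96293969 on the minus strand. None of the 5 overlaps another listed gene. The annotated transcripts of Fcgr2b and Fcgr3 share a run of 129 bases. At the read length of 100 bases, 2.54% of the windows of Fcgr3 also occur in Fcgr2b. Of the windows of Fcgr2b, 1.40% also occur in another gene, Fcgr3 among several. A small part of their counts could thus be split between them or with other genes. No 100-base window of Fcgr1, Fcgr4 or Fcer1g is shared with another gene.

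Library totals ran from 34016445 to 56310712 reads. All 8 macrophage markers were listed, with Csf1r between 87079 and 123454 normalized counts and Adgre1 between 31292 and 39687, so the defining markers of the labelled cell type were present. Normalized counts are reads divided by 1 size factor per library. Neutrophil markers (6 of 10 listed) summed to 719 to 1457 normalized counts per library, and fibroblast markers (4 of 8) to 110 to 372. Of 8 B cell markers 2 were listed, Ighm at 2119 to 2973 and Cd79b at 17.4 to 68.0. None of the 8 markers each of mast cells and basophils, of NK and T cells, or of dendritic cells was listed. In bulk RNA, fewer expressing cells and less RNA per cell cannot be told apart.

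Compared per kilobase of exon, Fcer1g and Fcgr3 were far above the other members. Mean levels ran from 14147 to 15641 normalized counts per kb over the 5 groups for Fcer1g, and from 9963 to 11737 for Fcgr3. Fcgr1 ran from 1279 to 1936 per kb, Fcgr4 from 995 to 1169 and Fcgr2b from 269 to 398. Fcgr3 alone made up 75.0% to 80.7% of the per-kb sum of the 4 receptors, as a mean by group. Fcgr2b made up 2.03% in high glucose and 2.80% in normal glucose, the lowest and the highest of the group means. These levels and shares depend on the length used. For Fcgr2b it was the 5790 bases of all annotated exons, while its longest transcript has 3544.

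**Figure D1:**
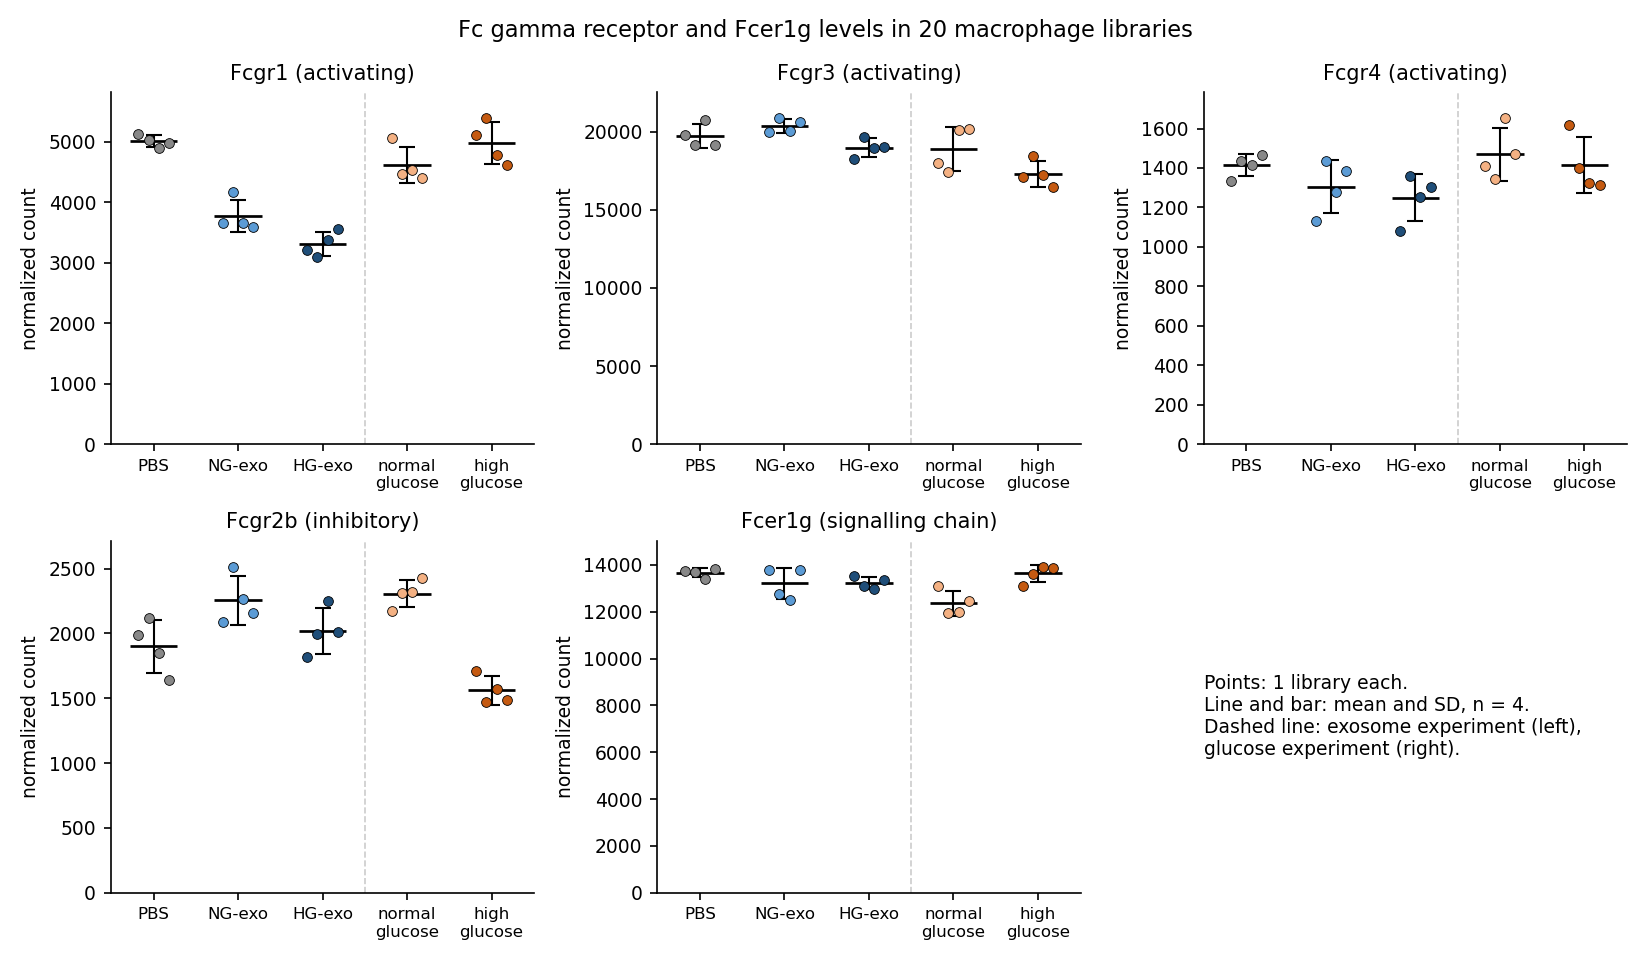
Normalized counts of the 5 genes (y axis, from 0, 1 scale per panel) in the 5 groups (x axis), with 1 point per library and the mean and SD of 4 libraries. The 4 high glucose libraries lie below all others but 1 PBS library for Fcgr2b, and both exosome groups lie below PBS for Fcgr1.

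High against normal glucose asked how the receptors respond to the medium itself. Fcgr2b fell, the signalling chain Fcer1g rose slightly, Fcgr3 fell slightly, and Fcgr1 and Fcgr4 did not pass the test. Called here means a Benjamini-Hochberg adjusted p under 0.05 in limma over all 14425 genes tested. Of the 5 members 3 were called, against 13.3% of all genes tested, or 1914 genes, of which 1116 were higher. With quantile normalization 789 of 1661 called genes were higher, so the balance of directions depends on the scaling.

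Fcgr2b, the inhibitory receptor, had 1711, 1468, 1574 and 1489 normalized counts in high glucose. In normal glucose it had 2171, 2311, 2317 and 2428. Every high glucose library lay below every normal glucose library, with a clear gap. The means were 1560 ± 111 and 2307 ± 105 (SD, n = 4 each), a log2 fold change of -0.57 (SE 0.06, limma adjusted p = 3.18e-09). The change stood 59th of 14425 genes by p, and it was called in 11 of 11 other settings and with each of the 8 libraries left out. B cells also express Fcgr2b. The 2 listed B cell markers summed to 2491 to 2879 in high glucose and 2878 to 3021 in normal glucose, with Ighm nearly all of it, and their part in the Fcgr2b result was not tested.

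Fcer1g, the ITAM-bearing chain, had 13110, 13610, 13925 and 13882 normalized counts in high glucose. It had 13087, 11941, 11979 and 12452 in normal glucose. The groups did not overlap, but the lowest high glucose library lay just above the highest normal glucose one. The log2 fold change was 0.14 (SE 0.04, adjusted p = 0.00643). With quantile normalization it was 0.06 (adjusted p = 0.25), so this small rise depends on the scaling.

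Fcgr3, the low-affinity activating receptor, had 17076, 18424, 17248 and 16434 normalized counts in high glucose. It had 17974, 17442, 20080 and 20146 in normal glucose. The groups overlapped, since 1 high glucose library lay above 2 normal glucose libraries. The log2 fold change was -0.13 (SE 0.04, adjusted p = 0.0353). The call was lost without normal glucose library 5 (adjusted p = 0.18) or 6 (0.16), and without high glucose library 1 (0.081), 4 (0.077) or 6 (0.17).

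Fcgr1 had 5114, 5393, 4777 and 4615 normalized counts in high glucose and 5064, 4468, 4534 and 4400 in normal glucose. The groups overlapped, and the log2 fold change of 0.11 (95% interval 0.01 to 0.21, adjusted p = 0.154) did not pass the test. Without normal glucose library 1, the highest of its group, it was 0.15 with an adjusted p of 0.0229. Fcgr4, an activating receptor that binds IgG2a and IgG2b, had 1619, 1398, 1325 and 1311 in high glucose and 1411, 1343, 1653 and 1469 in normal glucose. These values were interleaved, with a log2 fold change of -0.06 (interval -0.20 to 0.08, adjusted p = 0.664).

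Groups that do not overlap were seen for Fcgr2b and Fcer1g, 2 of 5 members, against 16.3% of all genes tested. By an exact two-sided permutation test over the libraries, both reached p = 0.0286, the smallest that 4 against 4 allows. Over the 25 member tests of the 5 comparisons, the Benjamini-Hochberg adjusted value of each was 0.0893.

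Macrophage markers as a whole were also higher in high glucose. Their sum ran from 814179 to 884986 normalized counts there and from 635665 to 709843 in normal glucose, most of it Lyz2, and its part in the receptor results was not tested. Neutrophil markers summed to 889 to 1002 and 719 to 942.

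The activating to inhibitory ratio sums Fcgr1, Fcgr3 and Fcgr4 per kb in a library and divides by Fcgr2b per kb, so the size factor cancels. It was 44.3, 54.5, 47.2 and 47.8 in high glucose. In normal glucose it was 35.8, 32.2, 36.6 and 34.5. The groups did not overlap, with means of 48.5 ± 4.29 and 34.8 ± 1.92 (SD, n = 4 each) and a 1.39-fold difference (0.48 on the log2 scale, SE 0.07). The numerator was mostly Fcgr3, which did not rise, so the higher ratio went with the lower Fcgr2b. Taken singly, the ratio to Fcgr2b was 1.59-fold higher in high glucose for Fcgr1, 1.36-fold for Fcgr3, 1.42-fold for Fcgr4 and 1.63-fold for Fcer1g. These ratios are given without a test, since they share the Fcgr2b values already tested.

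**Figure D2:**
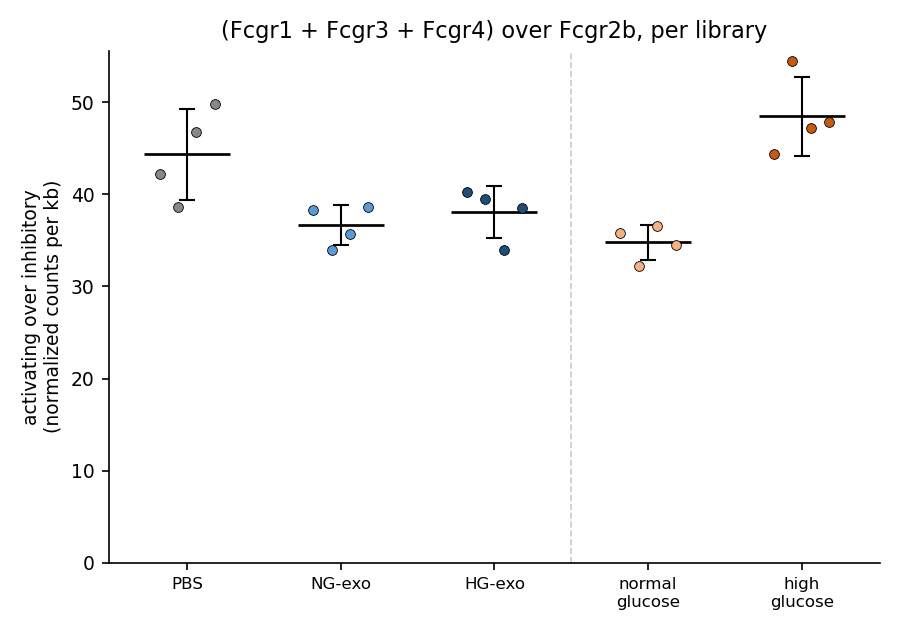
Ratio of the per-kb sum of Fcgr1, Fcgr3 and Fcgr4 to Fcgr2b (y axis, from 0) in each library of the 5 groups (x axis), with the mean and SD of 4 libraries. High glucose libraries lie between 44.3 and 54.5 and normal glucose libraries between 32.2 and 36.6.

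Exposure of naive BMDM to exosomes was read against PBS, which is the shared control of both exosome groups. The high-affinity receptor Fcgr1 was the member that changed most, and it fell after either kind of exosome. Calls in the exosome comparisons also needed a log2 fold change of at least 0.15 in size. In BMDM–NG-exo against PBS 2 of 5 members were called, against 3% of all genes tested. In BMDM–HG-exo against PBS 1 member was called, against 4.84%.

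Fcgr1 had 5135, 5030, 4892 and 4989 normalized counts in PBS. After BMDM–NG-exo it had 3661, 4166, 3652 and 3595. After BMDM–HG-exo it had 3205, 3097, 3372 and 3567. All 8 exosome-treated libraries lay below all 4 PBS libraries, and every BMDM–HG-exo library lay below every BMDM–NG-exo library, by a narrow margin for the nearest pair. The means were 5012 ± 101 in PBS, 3768 ± 267 in BMDM–NG-exo and 3310 ± 205 in BMDM–HG-exo (SD, n = 4 each).

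Against PBS, the log2 fold change of Fcgr1 was -0.41 for BMDM–NG-exo (SE 0.05, limma adjusted p = 5.10e-07) and -0.60 for BMDM–HG-exo (SE 0.05, adjusted p = 1.48e-10). The sum of the macrophage markers, most of it Lyz2, was also lower than in PBS. It ran from 802838 to 849233 normalized counts in PBS, from 725758 to 782978 after BMDM–NG-exo and from 743622 to 768774 after BMDM–HG-exo. The exosome groups overlapped for this sum, and its part in the Fcgr1 result was not tested. Neutrophil markers overlapped between the 3 groups. By p, Fcgr1 stood 19th and 4th of 14413 genes. Both calls were kept in 11 of 11 other settings and with each of the 12 libraries left out.

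Fcgr2b had 1984, 2119, 1853 and 1642 normalized counts in PBS. It had 2086, 2515, 2268 and 2156 after BMDM–NG-exo and 1814, 1998, 2249 and 2012 after BMDM–HG-exo. The 3 groups overlapped, with 1 PBS library above the lowest BMDM–NG-exo library, which was of another date. Within each date BMDM–NG-exo lay above PBS, while BMDM–HG-exo lay above PBS on some dates and below it on others. The share of all genes above PBS on every date was not computed. Fcgr2b was higher in BMDM–NG-exo than in PBS by 0.25 on the log2 scale (SE 0.07, limma adjusted p = 0.0338). That call was lost without PBS replicate 3 (adjusted p = 0.071) or 4 (0.20). It was also lost without BMDM–NG-exo replicate 2 (0.19) or 3 (0.085), and without PBS replicate 4 the difference was 0.18. With the date as a replicate block the call was kept. In BMDM–HG-exo against PBS the log2 fold change was 0.09 (interval -0.05 to 0.23, adjusted p = 0.566).

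Fcgr3 had 19802, 19156, 20764 and 19138 normalized counts in PBS, 19952, 20863, 20057 and 20631 after BMDM–NG-exo, and 18248, 19685, 18935 and 19034 after BMDM–HG-exo. PBS overlapped with both other groups. Its log2 fold changes against PBS were 0.05 and -0.05, with adjusted p of 0.584 and 0.423. Fcgr4 had 1336, 1434, 1417 and 1467 in PBS, 1131, 1433, 1278 and 1382 after BMDM–NG-exo, and 1082, 1361, 1252 and 1303 after BMDM–HG-exo. Each Fcgr4 group overlapped with PBS, and the log2 fold changes of -0.12 and -0.18 did not pass (limma adjusted p of 0.527 and 0.179). Within each date Fcgr4 lay below PBS in both exosome groups, nearly tied for BMDM–NG-exo replicate 2, while Fcgr3 went both ways. The share of all genes below PBS on every date was not computed. With the date as a replicate block Fcgr4 was not called either.

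Fcer1g differed little across the exosome experiment. Its values were 13757, 13707, 13384 and 13831 in PBS, 13785, 12766, 12478 and 13785 after BMDM–NG-exo, and 13513, 13104, 12959 and 13350 after BMDM–HG-exo. The log2 fold changes against PBS were -0.05 for both exosome groups, with intervals from -0.12 to 0.02.

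Non-overlap with PBS was seen for Fcgr1 only, 1 of 5 members in each comparison, against 8.27% of all genes for BMDM–NG-exo and 10% for BMDM–HG-exo. Its exact permutation p was 0.0286 in each, the smallest possible (0.0893 adjusted over the 25 tests).

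BMDM–HG-exo against BMDM–NG-exo asked whether the glucose level of the exosome-producing cells mattered. None of the 5 members was called, against 0.0139% of all genes tested, or 2 genes. Those were Thbs1 (log2 fold change -0.51, limma adjusted p = 0.000382) and Selenop (-0.16, adjusted p = 0.0476), named after their values were seen. At an unadjusted p under 0.05 there were 942 genes by limma, and edgeR called 1 gene and DESeq2 called 22, no member among them. With the date as a replicate block limma called 22 genes, again no member. For Fcgr1 the log2 fold change was -0.19 (interval -0.29 to -0.09, adjusted p = 0.279). For Fcgr3 it was -0.10 (interval -0.17 to -0.04, adjusted p = 0.516), for Fcgr2b -0.16 (interval -0.30 to -0.02, adjusted p = 0.698) and for Fcgr4 -0.06 (interval -0.21 to 0.09). For Fcer1g it was 0.00 (interval -0.07 to 0.08). Compared within a date, BMDM–HG-exo was lower than BMDM–NG-exo on 4 of 4 dates for Fcgr1, Fcgr3, Fcgr4 and Fcgr2b, and on 2 of 4 for Fcer1g. The share of all genes lower on every date was not computed, so this count does not set the members apart. With the date as a replicate block, the limma adjusted p were 0.13 for Fcgr1, 0.25 for Fcgr3, 0.89 for Fcgr4 and 0.48 for Fcgr2b. Fcgr1 and Fcgr3 did not overlap between these groups, 2 of 5 members against 3.86% of all genes, each with an exact permutation p of 0.0286 (0.0893 adjusted).

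Against the 8 control libraries of PBS and BMDM–NG-exo as 1 group, Fcgr1 was called lower in BMDM–HG-exo, 1 of 5 members against 0.201% of all genes tested, or 29 genes. With quantile normalization 9 of 19 called genes were higher, against 10 of 29. The log2 fold change of Fcgr1 was -0.39 (SE 0.08, adjusted p = 0.0392). The control group itself was mixed, since its PBS libraries all lay above its BMDM–NG-exo libraries for this gene. The call held in 7 of 11 other settings and in 5 of the 12 fits with 1 library left out. It did not hold with the date as a replicate block (limma adjusted p = 0.078). It was lost without any 1 PBS library (adjusted p of 0.061 to 0.093) and without BMDM–HG-exo replicate 1 (0.25), 2 (0.15) or 3 (0.13). Fcgr1 was also the member without overlap here, 1 of 5 against 1.17% of all genes, with an exact permutation p of 0.00404 (0.0893 adjusted). The other members did not pass, with log2 fold changes of -0.08 for Fcgr3, -0.12 for Fcgr4, -0.04 for Fcgr2b and -0.02 for Fcer1g (adjusted p of 0.351 to 0.917).

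**Figure D3:**
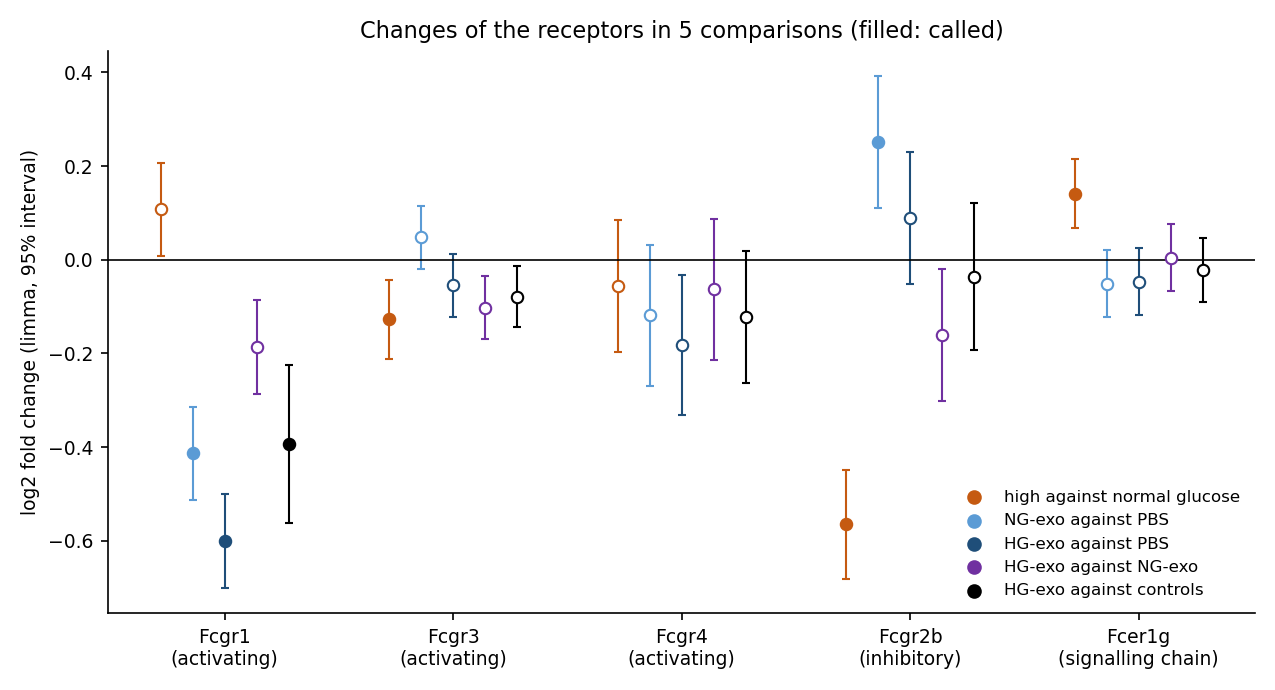
Log2 fold change from limma with its 95% interval (y axis) for each gene (x axis) in the 5 comparisons, with filled points for called changes. Fcgr2b is lowest in high against normal glucose at -0.57, and Fcgr1 is lowest in BMDM–HG-exo against PBS at -0.60; the exosome comparisons share libraries.

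The activating to inhibitory ratio was 42.2, 38.6, 46.8 and 49.8 in PBS, 38.3, 34.0, 35.7 and 38.6 after BMDM–NG-exo, and 40.2, 39.5, 34.0 and 38.5 after BMDM–HG-exo. All 3 groups overlapped, with means of 44.3 ± 4.95, 36.7 ± 2.21 and 38.1 ± 2.80. PBS and BMDM–NG-exo overlapped only narrowly, by 38.57 in PBS against 38.61. Within each date BMDM–NG-exo lay below PBS, while BMDM–HG-exo went both ways. On the log2 scale the difference from PBS was -0.27 (SE 0.09) for BMDM–NG-exo and -0.22 (SE 0.10) for BMDM–HG-exo, given without a test. For Fcgr1 alone over Fcgr2b, the ratio to that in PBS was 0.631 after BMDM–NG-exo and 0.620 after BMDM–HG-exo, with no overlap with PBS in either. For Fcgr4 over Fcgr2b it was 0.774 after BMDM–NG-exo, without overlap, and 0.828 after BMDM–HG-exo, with overlap. For Fcgr3 over Fcgr2b it was 0.869 and 0.905, and for Fcer1g over Fcgr2b 0.811 and 0.910, all with overlap.

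Ordered by group mean over both experiments, Fcgr1 ran from PBS and high glucose through normal glucose to BMDM–NG-exo and BMDM–HG-exo. PBS, high glucose and normal glucose overlapped with their neighbours in that order, and the last 2 steps did not. For Fcgr2b the order was normal glucose, BMDM–NG-exo, BMDM–HG-exo, PBS and high glucose, and each neighbouring pair overlapped. For Fcgr3, BMDM–NG-exo was highest and high glucose lowest, for Fcgr4 normal glucose was highest and BMDM–HG-exo lowest, and for Fcer1g PBS was highest and normal glucose lowest. No neighbouring groups were apart for these 3 genes. The exosome and glucose libraries were separate experiments, so a difference between them cannot be told apart from the experiment.

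Promoters were read for motifs of the factors known to control these genes. The 250 bases before each RefSeq start (GRCm38.p6) were searched on both strands for the gamma-activated element GAS (TTCNNNGAA), the interferon-stimulated element ISRE (GAAANNGAAA) and the PU.1 core GAGGAA, which do not overlap in the matches found. All 5 members had a promoter in the table. The Fcgr1 window held a GAS match 109 to 101 bases before the start and a PU.1 match 55 to 50 bases before it. The Fcgr4 window held an ISRE match 73 to 64 bases before the start and a PU.1 match 22 to 17 bases before it. Both Fcgr3 windows held a PU.1 match, and the Fcgr2b and Fcer1g windows held none of the 3 motifs. Of 32851 promoters, 7.02% held the GAS letters, 2.98% the ISRE letters and 23.3% the PU.1 letters. The windows with an interferon-type match are shown 5′ to 3′ along the gene, with matches in capitals (PU.1 as its complement).
Fcgr1, chr3:96293970-96294219, minus strand: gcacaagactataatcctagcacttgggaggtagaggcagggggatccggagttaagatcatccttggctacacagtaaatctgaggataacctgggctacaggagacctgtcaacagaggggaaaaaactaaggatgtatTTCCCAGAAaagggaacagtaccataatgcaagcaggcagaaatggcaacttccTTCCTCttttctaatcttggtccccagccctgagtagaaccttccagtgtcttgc
Fcgr4, chr1:171018676-171018925, plus strand: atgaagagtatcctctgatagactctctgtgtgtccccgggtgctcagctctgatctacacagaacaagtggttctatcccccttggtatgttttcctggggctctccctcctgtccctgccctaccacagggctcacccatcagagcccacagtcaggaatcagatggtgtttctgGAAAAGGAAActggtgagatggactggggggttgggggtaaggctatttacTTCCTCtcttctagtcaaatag

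Interferon response genes (15 tested) moved in opposite directions in the glucose and exosome experiments. In high against normal glucose 14 of 15 rose and none fell, with a list median of 0.69 beside -0.00 for all genes, and Ifit1 (0.98), Ifit3 (0.91) and Ifit2 (0.73), interferon-induced RNA-binding proteins, led by p. In BMDM–NG-exo and in BMDM–HG-exo against PBS all 15 fell, with medians of -0.68 and -0.70 beside 0.00 for all genes. Irf7, a transcription factor of the interferon response, had log2 fold changes of -0.78 and -0.89 against the shared PBS libraries, Ifit2 of -0.79 and -0.84, and the synthetase relative Oasl2 of -0.58 and -0.73. In BMDM–HG-exo against BMDM–NG-exo none of the 15 was called, with a median of -0.08. Against the controls together none was called, with a median of -0.41. Beside these values, Fcgr1 had 0.11 in high glucose and -0.41 and -0.60 in the exosome groups, and Fcgr4 had -0.06, -0.12 and -0.18.

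Regulators known to control these receptors were 15 genes. In high against normal glucose 7 rose and 1 fell (list median 0.07), led by Cebpb (0.38), the PU.1 gene Spi1 (0.23) and the complement receptor C5ar1 (0.23), while the IL-10 receptor chain Il10rb fell by 0.12. In BMDM–HG-exo against PBS 7 fell and none rose (median -0.14), among them the interferon gamma receptor chain Ifngr1 at -0.23 and the transcription factor Irf1 at -0.30. In BMDM–NG-exo against PBS 2 fell (median -0.10), among them the IL-10 receptor gene Il10ra by 0.20. None was called in the comparisons of BMDM–HG-exo with BMDM–NG-exo (median -0.03) or with the controls (median -0.09).

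Partners of Fcer1g and ITAM adaptors had 6 of 9 genes tested. The lectin receptors Clec4d (0.43), Clec4e (0.54) and Clec4n (0.55), which signal through Fcer1g, rose in high glucose with adjusted p of 1.62e-10, 2.68e-07 and 1.51e-06. The activating Ig-like receptor Pira2 fell by 0.30, and the list median was 0.27. Against PBS, Clec4e fell in both exosome groups (-0.30 after BMDM–NG-exo and -0.42 after BMDM–HG-exo) and no other gene of the list was called. The medians were -0.03 and -0.08. The comparisons of BMDM–HG-exo with BMDM–NG-exo and with the controls had none called, with a median of -0.02 in each.

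Other immunoglobulin receptors had 4 of 12 genes tested. Trim21, the cytosolic antibody receptor, rose in high glucose (0.25), while the neonatal Fc receptor Fcgrt (-0.20) and the Fc receptor-like gene Fcrls (-0.23) fell. Fcgrt also fell in BMDM–HG-exo against PBS (-0.25) and against the controls (-0.22, adjusted p = 0.018), and Fcrls fell against PBS (-0.28). None was called in the other 2 comparisons. The list medians were -0.14 in high glucose, -0.07 and -0.19 for BMDM–NG-exo and BMDM–HG-exo against PBS, -0.08 between the exosome groups and -0.14 against the controls.

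Signalling below the activating receptors (27 of 28 genes tested) was mixed. In high glucose 6 rose, among them the kinase gene Prkcd (0.24) and the phospholipase gene Plcg2 (0.27), and 2 fell, Plcg1 (-0.26) and the adaptor Gab2 (-0.12). In BMDM–HG-exo against PBS 3 rose and 5 fell, with the Src-family kinase gene Fgr (-0.46) and the adaptor Lcp2 (-0.22) lower and Lat2 (0.19), Tec (0.18) and Blnk (0.18) higher. In BMDM–NG-exo against PBS 2 rose, Lat2 (0.18) and Tec (0.16), and 1 fell. Neither remaining comparison had a call. Medians lay between -0.02 and 0.01 in all 5 comparisons.

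Inhibitory signalling (15 of 16 genes tested) had 3 genes higher in high glucose, the phosphatase genes Ptpn6 (0.27), which encodes SHP-1, and Inppl1 (0.30), which encodes SHIP-2, and the adaptor Dok3 (0.30). Dok2 (-0.33) and Sla (-0.20) fell. Ptpn6 fell against PBS by 0.23 after BMDM–NG-exo and by 0.18 after BMDM–HG-exo. Inppl1 fell after BMDM–NG-exo (-0.16), and Dok2 (-0.29) and the kinase Csk (-0.16) were among 4 that fell after BMDM–HG-exo. The ubiquitin ligase Cblb rose in BMDM–HG-exo against PBS (0.30) and against the controls (0.23, adjusted p = 0.0381). No gene was called between the exosome groups, and medians lay between -0.04 and 0.05.

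Other receptors listed as ITIM-bearing (18 of 19 tested) did not follow Fcgr2b as a group. Whether the mouse form of each, Cd33 among them, carries an ITIM was not checked. In high glucose Cd72 (0.74), Siglece (0.88) and Milr1 (0.20) rose and Cd33 (-0.80) and Cd300lf (-0.50) fell. Against PBS, Cd33 rose in both exosome groups (0.34 and 0.26), and Cd72 (-0.44 and -0.31) and Pilra (-0.40 and -0.55) fell in both. Clec4a2 fell after BMDM–HG-exo (-0.49). The other 2 comparisons had no call, and medians over the 5 comparisons lay between -0.06 and 0.03.

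Engulfment machinery (33 genes tested) had 7 higher and 3 lower in high glucose. The GTPase gene Rac2 (0.35), the Arp2/3 subunit Arpc1b (0.23) and the actin regulator Coro1a (0.21) rose, and Marcks (-0.24), Limk1 (-0.27) and Pld1 (-0.20) fell. In both exosome groups against PBS only Coro1a (-0.25 and -0.24) and Marcks (-0.18 and -0.27) were called, and the other 2 comparisons had no call. Medians lay between -0.03 and 0.03.

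**Figure D4:**
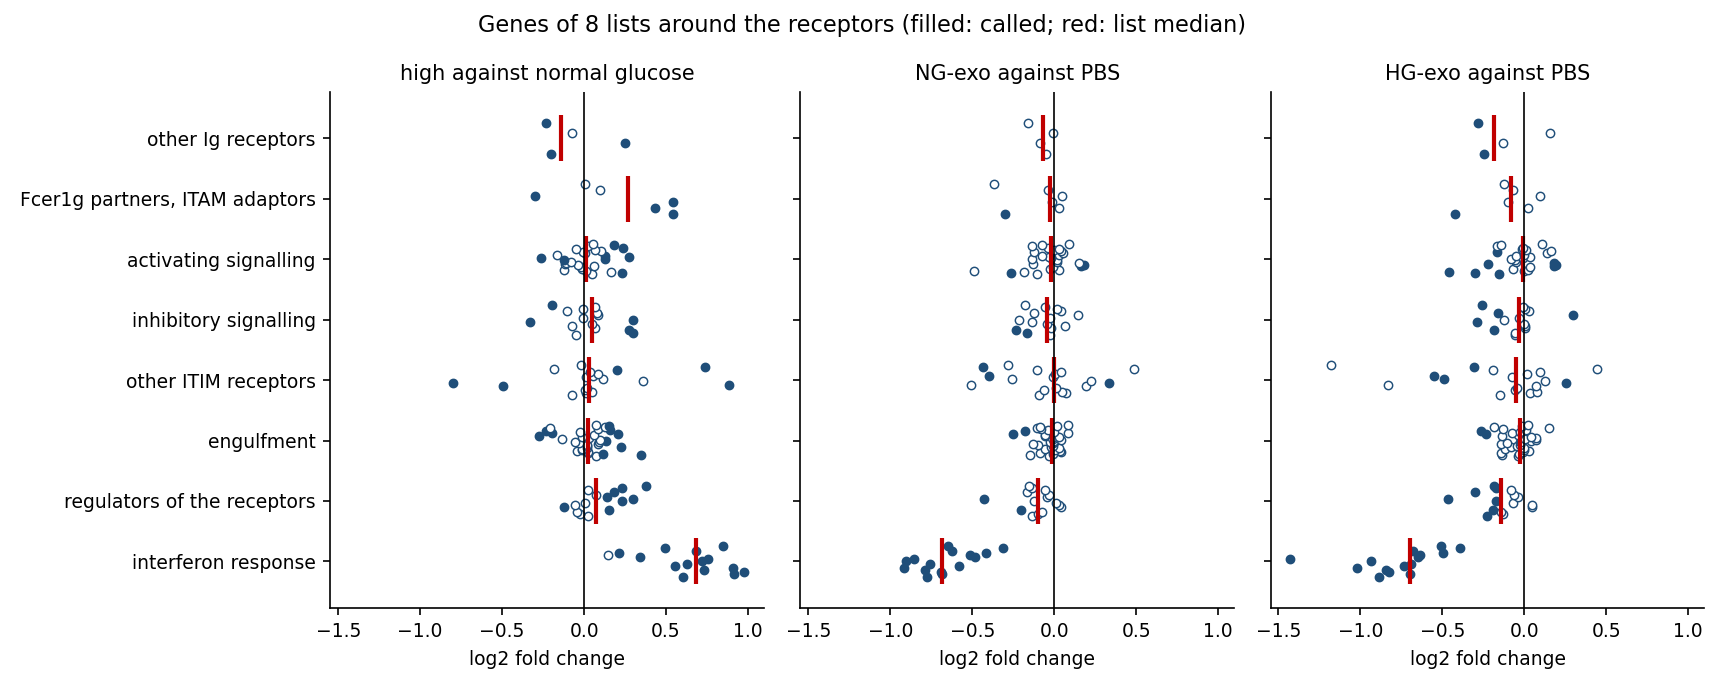
Log2 fold change (x axis) of each tested gene of 8 lists (rows) in 3 comparisons, with filled points for called genes and a red bar at the list median. Interferon response genes lie to the right in high glucose (median 0.69) and to the left in both exosome groups (-0.68 and -0.70), while the other lists hold genes on both sides of 0, except the other immunoglobulin receptors in BMDM–NG-exo against PBS, which lie from -0.16 to -0.01.

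Genes with the most similar pattern were ranked by Pearson r of log2 values over the 20 libraries among 11713 other genes with a mean of at least 50. These r values describe libraries that share 2 experiments and 5 groups. For Fcgr1 they were Pml (0.93), Clec4a1 (0.93) and Gm1966 (0.92). Pml encodes the protein of nuclear bodies. For Fcgr2b they were Entpd1 (0.91), which encodes the ATP-hydrolysing enzyme CD39, Anxa3 (0.88) and Arhgap19 (0.88). Entpd1 fell in high glucose by 0.61 on the log2 scale and was higher by 0.25 in BMDM–NG-exo than in PBS (adjusted p of 5.21e-12 and 0.000167), beside -0.57 and 0.25 for Fcgr2b.

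The genes most like Fcgr3 were Scpep1 (0.84), Enc1 (0.83) and Thbs1 (0.83), and those most like Fcgr4 were Ifnar1 (0.84), Dmpk (0.78) and Gbp5 (0.77). Ifnar1 encodes a chain of the type I interferon receptor. The genes most like Fcer1g were Tmem43 (0.95), Ampd2 (0.91) and Itprid2 (0.91). With group means removed, which leaves variation within groups, 3 of the 15 named genes stayed among the top 3 of their member, 1 for Fcgr4 and 2 for Fcer1g. Among the members themselves, r was 0.60 for Fcgr1 with Fcgr4, 0.59 for Fcgr3 with Fcgr2b and -0.67 for Fcgr2b with Fcer1g.

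Listed neighbours within 500 kb were read to see whether the loci moved as blocks. Around the chromosome 1 cluster 37 neighbours were tested, and in high glucose Ly9 (0.27) and Slamf7 (0.16), both SLAM-family receptors, rose and Pcp4l1 (-0.27) fell, which is 8.11% of them beside 13.3% of all genes tested. In BMDM–HG-exo against PBS Ppox (-0.30) was called there, and no neighbour was called in the other 3 comparisons. Around Fcgr1, 46 neighbours were tested, and 2 rose and 6 fell in high glucose, which is 17.4% of them, led by Txnip (0.25), Hist2h2ac (-0.32), Hist2h4 (-0.44), Hist2h2ab (-0.73) and Rnf115 (0.15). No neighbour of Fcgr1 was called in the 4 exosome comparisons, in 3 of which Fcgr1 itself was called.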

How the data were processed

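Long RNA libraries of BMDM (20, in 5 groups of 4) were analysed. Per the study's methods and the submitters' processing notes, the authors trimmed reads with cutadapt, used STAR for mapping to GRCm38 and featureCounts, with strand, for gene counts, and scaled these by the median ratio method of DESeq2, so the deposited signal is each read count divided by 1 size factor per library. Whole reads were recovered from the steps between values in all 20 libraries (100% of values within 0.01 of a whole number). GENCODE M21 gave names and coordinates. The annotation used for counting is not given in the sources used here.

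The members and the gene lists were chosen with earlier results of these data known. log2(value + 1) was fitted with limma 3.58.1 (R 4.3.3, eBayes with trend) for genes with a mean of at least 10 in the fitted libraries. The glucose comparison used 8 libraries, the pairwise exosome comparisons a fit of 3 groups over 12, and BMDM–HG-exo against controls a fit of 2 groups over the same 12. Calls needed a Benjamini-Hochberg adjusted p under 0.05 and, in exosome comparisons, a log2 fold change of 0.15 in size. Single members were also compared by exact permutation of libraries. Named were all members, of each list up to 3 called genes in each direction by smallest p, the 3 genes most correlated with each member, and up to 5 called neighbours within 500 kb. Some genes that this rule names are counted in their lists but not reported here by name. Alternatives were edgeR 4.0.16 and DESeq2 1.42.0 on recovered reads, other pseudocounts, filters, normalizations and fits, and each library left out. The fit was tested on simulated data.

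Exosome libraries of 1 date are paired by the labels. Deviations from group means correlated by 0.012 on average for the 12 same-date pairs and by -0.004 for the 36 others. Library depth of 34016445 to 56310712 reads put each member at 1055 reads or more in every library. In PBS the spread between libraries was itself small, with an SD of 2.01% of the mean for Fcgr1 and 3.93% for Fcgr4. Counting error cannot be called small beside the spread there. No 2 libraries of a group agreed within sampling noise.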

Additional observations from a re-analysis of the deposited data

Results flagged for a closer look

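Among the 4 BMDM–NG-exo libraries, replicate 2 stood apart for Fcgr1 at 4166 normalized counts, with the other 3 between 3595 and 3661. Its gap to the nearest was 0.883 of the range of the group, above the critical value of Dixon's test for 4 samples. In all, 30 groups of 4 values were tested (5 genes and the ratio in 5 groups), and chance flags about 1 in 20. Without this library the log2 fold change of Fcgr1 in BMDM–NG-exo against PBS was -0.46 and in BMDM–HG-exo against BMDM–NG-exo -0.14 (limma adjusted p = 0.82). The library also had the highest Fcgr2b value of the exosome experiment, 2515.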

How the results depend on the processing

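Of the alternative values of single members in the 5 comparisons, 520 kept their direction and side of the threshold, 25 lost the call, 1 gained it and 9 reversed, none of those reversed being called. Fcgr2b in high glucose and Fcgr1 against PBS kept their calls throughout. Without the variance trend the members called were 1 in high glucose, 0 in BMDM–HG-exo against controls and 1 in BMDM–NG-exo against PBS, and the genes called were 654, 1 and 95, with 1 in BMDM–HG-exo against BMDM–NG-exo and 295 in BMDM–HG-exo against PBS. Against controls, 0 members were also called with quantile normalization (19 genes), DESeq2 (127 genes) and the replicate block, while a pseudocount of 10 gave 52 genes and a fit of all 5 groups 322. Between the exosome groups, the genes called were 7 with a pseudocount of 10, 5 with a filter at 50, 1 with TMM or edgeR, 22 with DESeq2 and 0 with all 5 groups. The cause of these changes was not tested.

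With dates as a replicate block, 22 genes were called between the exosome groups, and no call of a member changed but that of Fcgr1 against controls. The glucose groups share only the numbers 1 and 6, and deviations of same-numbered libraries correlated by 0.007 (2 pairs) against -0.001 for the 14 others. With that block 788 genes and 2 members were called, Fcer1g being lost at 0.08 (limma adjusted p = 0.54), and Fcgr4 had 0.017. Every other number occurs in 1 group only, so in that fit the difference rests on the libraries numbered 1 and 6. It is not a check on all 8 libraries.

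Leaving out each library gave 2 to 4 members called in high glucose (1370 to 2027 genes), 0 to 1 against controls (1 to 204 genes, the extremes without BMDM–HG-exo replicate 1 and BMDM–NG-exo replicate 3), 0 between exosome groups (1 to 7 genes), 1 in BMDM–HG-exo against PBS (550 to 759 genes) and 1 to 2 in BMDM–NG-exo against PBS (292 to 453 genes). The log2 difference in the activating to inhibitory ratio ran from 0.42 to 0.52 in high glucose, from -0.28 to -0.16 in BMDM–HG-exo and from -0.33 to -0.21 in BMDM–NG-exo against PBS. It is not changed by scaling, and with the longest transcript as length it was 0.47 in high glucose. The level of the ratio does depend on the length, with means of 36.2 in high glucose and 26.1 in normal glucose for longest transcripts. Reversed values lay near 0. With each library left out, Fcgr4 ran from -0.12 to 0.0015 in high glucose and from -0.13 to 0.0040 between exosome groups, where Fcer1g ran from -0.022 to 0.026, and Fcgr2b from -0.089 to 0.014 against controls. The exact permutation tests were not repeated without a library, and 3 against 4 could not go below 0.05.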
